A study of Mus musculus with 2 samples.

Results

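The 10 genes described here encode subunits of Polycomb repressive complex 2 (PRC2): the catalytic subunits *Ezh2* and *Ezh1*, the core subunits *Suz12* and *Eed*, the histone-binding subunits *Rbbp4* and *Rbbp7*, and the accessory subunits *Jarid2*, *Mtf2*, *Phf19* and *Aebp2*. They were chosen by name, as members of the complex, out of 16665 genes listed in 1 or both count tables, and all 10 were listed in both. The study asked how loss of *Taf4*, part of the general transcription factor TFIID, changes gene expression in organoids (enteroids) grown from ileal crypts of 4-month-old C57Bl6/129sv mice. Live cells of 1 control and 1 KO culture were captured on the droplet platform of 10X Genomics, which reads the 3′ ends of transcripts and counts unique molecular identifiers (UMIs). The KO-labelled culture carried *Taf4* lox/lox::VilCreERT2, in which a tamoxifen-activated Cre recombinase is driven by the Villin promoter of epithelial cells, and received 1 µM 4-hydroxytamoxifen (4-OHT) for 3 days. The label of the control names wild-type cells with ethanol alone, whereas the methods name *Taf4* lox/lox cells with 4-OHT, so an effect of 4-OHT, of the deletion and of the library itself cannot be told apart. With 1 library a group there was no test between libraries, and each 95% interval below covers counting error only.

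PRC2 methylates histone H3 at the residue called H3K27, a mark of silenced developmental genes. *Ezh2* and *Ezh1* are alternative catalytic subunits, of which *Ezh2* is typical of dividing cells and *Ezh1* of resting, differentiated cells. *Suz12* and *Eed* hold the complex together, *Eed* binds the mark, and the accessory subunits guide the complex to chromatin. In the intestine the complex is known for its role in crypt progenitors and in keeping lineage genes silent.

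The start sites of 3 of the 10 genes lay near letters that E2F factors bind, which drive genes of DNA replication, and these are printed because several members followed the replication level of the cells (below). The letters searched were TTTCCCGC, TTTCGCGC, TTTGCCGC and TTTGGCGC on both strands, in the 250 bases before and 50 bases after each RefSeq start (GRCm38.p6, the coordinates of mm10). They occurred at *Ezh2*, *Suz12* and *Phf19*, in 3 of the 14 windows of the 10 genes. Of all 32851 windows 2.26% held them, and of all 27025 genes 2.6%. The match is in capitals below, read 5′ to 3′ on the strand of the gene.
*Ezh2*, chr6:47595018-47595047, minus strand: atggcgattgggttgctgcgTTTGGCGCtc
*Suz12*, chr11:79992861-79992920, plus strand: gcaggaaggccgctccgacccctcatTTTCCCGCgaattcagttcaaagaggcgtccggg
*Phf19*, chr2:34914151-34914210, minus strand: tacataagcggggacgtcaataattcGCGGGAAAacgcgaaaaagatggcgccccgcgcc
The *Ezh2* letters began 3 bases after the start, those of *Suz12* 219 bases and those of *Phf19* 208 bases before it. A match in letters is not a binding site, and *Rbbp4*, which followed the replication level about as closely as *Ezh2* in the control, held none in its window. The letters TTTGAA or TTCGAA are the core of the element found in promoters of mitotic genes. They occurred in 4 of the 10 genes, *Eed*, *Suz12*, *Mtf2* and *Aebp2*, and in 21.7% of all genes. By window they occurred in 4 of the 14, and in 19.2% of all windows.

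The control library held 2563 cells and 39947009 UMIs, and the KO-labelled library 1811 cells and 24990128 UMIs. Median depth was 16749 UMIs a cell in the control and 2254 in the KO-labelled library, where 49.1% of cells had under 2000 UMIs against 17.3% in the control. The libraries shared 2 cell barcodes. *Taf4* itself was counted 278 times in the control and 236 times in the KO-labelled library, 0.0696 and 0.0944 UMIs per 10000. These reads come from the 3′ end of the transcript and the deleted part of the gene was not looked up here, so they do not check the label. Of 10 markers of blood, stromal, endothelial and glial cells, 7 were listed, with 93 UMIs in all in the control and 115 in the KO-labelled library. *Ptprc*, *Col3a1* and *Acta2* were not listed.

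In RNA summed over all cells, *Ezh2*, *Suz12* and *Rbbp4* were lower in the KO-labelled library, and *Ezh1* was higher. With each cell weighted equally, the intervals of all 4 held 0. *Ezh2*, the main methyltransferase of dividing cells, had 3631 UMIs in the control and 1553 in the KO-labelled library. This was 0.909 UMIs per 10000 (95% Poisson interval 0.880 to 0.939) against 0.621 (0.591 to 0.653), a log2 ratio of -0.55 (exact binomial interval -0.64 to -0.46). The 2 libraries therefore did not overlap within counting error. *Ezh1*, the other methyltransferase, was at 0.0936 (0.0844 to 0.104) in control and 0.127 (0.113 to 0.142) in KO-labelled cells, a log2 ratio of 0.44 (0.22 to 0.66). *Suz12*, which holds the complex together, was at 0.895 and 0.636 UMIs per 10000, a log2 ratio of -0.49 (-0.58 to -0.41). *Eed*, which binds the finished mark, was at 0.302 and 0.321, a log2 ratio of 0.09 whose interval, -0.04 to 0.22, held 0.

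The histone-binding subunits differed from each other. *Rbbp4*, which PRC2 shares with the chromatin assembly factor CAF-1 and the NuRD deacetylase complex, was at 0.942 and 0.692 UMIs per 10000, a log2 ratio of -0.44 (-0.53 to -0.36). *Rbbp7*, found in the same complexes, was at 2.81 and 2.70, a log2 ratio of -0.06 (-0.10 to -0.02). The accessory subunits *Jarid2*, *Mtf2* and *Aebp2* lay within counting error of no difference. *Jarid2*, which helps recruit the complex, was at 0.258 and 0.266, with a log2 ratio of 0.04 (-0.10 to 0.19). *Mtf2*, which binds CpG-rich DNA, was at 0.263 and 0.249, with a log2 ratio of -0.08 (-0.22 to 0.07). *Aebp2* was at 0.253 and 0.275, with a log2 ratio of 0.12 (-0.02 to 0.26). *Phf19* gave 25 UMIs in the control and 11 in the KO-labelled library, which leaves its direction undetermined (log2 ratio -0.51, -1.68 to 0.57).

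None of the 10 members passed a difference of 1.5-fold, against 7.43% of 9997 genes with at least 200 UMIs that were lower and 16% that were higher by this measure. The genes as a whole were shifted upward, with a median log2 ratio of 0.16, and 9 of the 10 members lay below that median. The median of the members was -0.07. Relative to the median gene the log2 ratio of *Ezh2* was -0.70. Genes of S phase not used in any matching (12, such as *Pcna* and *Rrm2*) had a median log2 ratio of -1.11, and 12 genes of mitosis, such as *Ccnb1* and *Plk1*, one of -1.66. Both lists moved with *Ezh2*, *Suz12* and *Rbbp4*. So did 4 genes that rise in cells of low RNA quality, in the other direction: *Malat1* had a log2 ratio of 0.74, *Gm42418* 0.76, *Lars2* 0.94 and *AY036118* 0.98, with a median of 0.47 at the matched levels described below. Their part in the values of the subunits was not tested.

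The differences over all cells depended on how cells were weighted. With each cell weighted equally the log2 ratio of *Ezh2* was 0.02 (-0.22 to 0.25), that of *Suz12* -0.16 (-0.41 to 0.08), that of *Rbbp4* -0.07 (-0.29 to 0.16) and that of *Ezh1* 0.44 (-0.14 to 1.01). With each cell thinned to 500 UMIs these were 0.43 (-0.03 to 0.89), -0.03 (-0.48 to 0.41), -0.38 (-0.83 to 0.06) and 0.59 (-0.49 to 1.67). The lower levels of *Ezh2*, *Suz12* and *Rbbp4* were thus measured in RNA summed over cells, to which deep cells give most. They were not shown for the average of all cells, shallow ones included. Among cells of at least 5000 UMIs (1988 and 758), thinned to 5000 and counted equally, 31.0% (29.0 to 33.1) of control cells held *Ezh2*. In the KO-labelled library 22.7% (19.8 to 25.8) did. For *Rbbp4* the shares were 35.1% (33.0 to 37.2) and 27.2% (24.0 to 30.5). For *Suz12* they were 32.8% (30.7 to 34.9) and 27.7% (24.5 to 31.0), whose intervals overlapped.

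**Figure D1:**
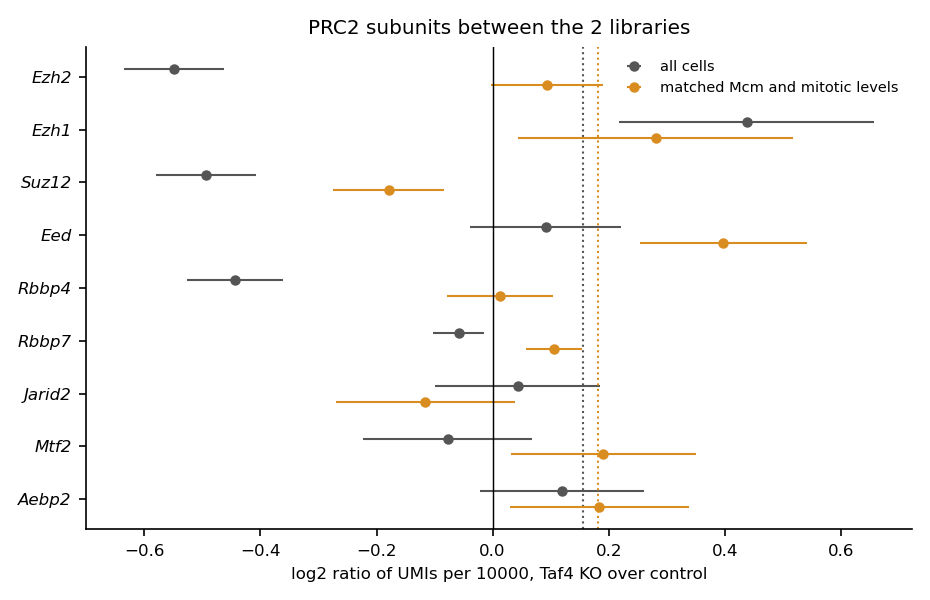
Log2 ratio of UMIs per 10000, KO-labelled over control library, for 9 of the 10 subunits (*Phf19* left out for low counts), with 95% counting intervals. Grey points are sums over all cells and orange points cells of matched Mcm and mitotic levels, and the dotted lines mark the median of all genes in the same cells (0.16 and 0.18). *Ezh2* and *Rbbp4* sit at -0.55 and -0.44 over all cells and near 0 after matching.

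The cells of each library were clustered without the 10 genes and the clusters named from markers. The stem-like class held 1055 control and 448 KO-labelled cells, the enterocyte-like class 161 and 167, the Paneth/goblet-like class 274 and 186, and the enteroendocrine-like class 265 and 129. The remaining 808 and 881 cells had no name, of which 374 and 666 had under 2000 UMIs. The summed stem markers stood at 26.5 UMIs per 10000 in control and 24.0 in KO-labelled stem-like cells, and between 0.893 and 13.6 in the other classes. Paneth and goblet markers were also higher in KO-labelled cells of other classes, 27.7 against 10.6 in stem-like and 166 against 37.9 in enteroendocrine-like cells, and within the Paneth/goblet-like class itself they stood at 1464 against 450.1. Their part in the results below was not tested.

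Summed over each class, *Ezh2* followed the order stem, enteroendocrine, Paneth/goblet, enterocyte in both libraries. In the control its level was 1.26 UMIs per 10000 (1.22 to 1.31) in stem-like, 0.769 (0.666 to 0.884) in enteroendocrine-like, 0.502 (0.440 to 0.570) in Paneth/goblet-like and 0.282 (0.229 to 0.343) in enterocyte-like cells, with no overlap between neighbours. In the KO-labelled library the levels were 1.02 (0.959 to 1.09), 0.707 (0.604 to 0.822), 0.333 (0.271 to 0.404) and 0.272 (0.226 to 0.325), and the last pair of classes overlapped. *Rbbp4* was also lowest in enterocyte-like cells, at 0.211 and 0.202, but enteroendocrine-like cells reached 1.07 in the control and 1.32 in the KO-labelled library, beside 1.27 and 1.00 in stem-like cells. *Suz12* varied less, from 1.10 in stem-like to 0.498 in enterocyte-like control cells, and from 0.90 in enteroendocrine-like to 0.347 in enterocyte-like KO-labelled cells. *Eed* was highest in stem-like cells (0.361 and 0.467) and lowest in enterocyte-like cells (0.139 and 0.156).

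Several subunits had another order. *Jarid2* was highest in enteroendocrine-like cells, at 0.650 (0.556 to 0.756) in control and 0.711 (0.608 to 0.826) in KO-labelled cells. In Paneth/goblet-like cells it was at 0.362 and 0.375, and in stem-like cells at 0.224 and 0.178. *Mtf2* was at 0.377 and 0.421 in enteroendocrine-like cells, beside 0.320 and 0.323 in stem-like cells, whose intervals overlapped with these in the control and in the KO-labelled library, and it was lowest in enterocyte-like cells at 0.0910 and 0.108. *Aebp2* stayed between 0.207 and 0.383 over the 4 named classes. *Ezh1* had the reverse of the pattern of *Ezh2* in its lowest class: stem-like cells held 0.0730 (0.0622 to 0.0852) in control and 0.101 (0.0819 to 0.124) in KO-labelled cells, and the other named classes 0.0995 to 0.119 among control and 0.114 to 0.181 among KO-labelled cells. *Rbbp7* was lowest in enterocyte-like (1.01 and 0.904 in the control and the KO-labelled library) and enteroendocrine-like cells (1.38 in the KO-labelled library) and highest of the named classes in stem-like cells, at 3.16 and 3.51. *Phf19* gave 21 of its 25 control UMIs and 8 of its 11 KO-labelled UMIs in stem-like cells.

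**Figure D2:**
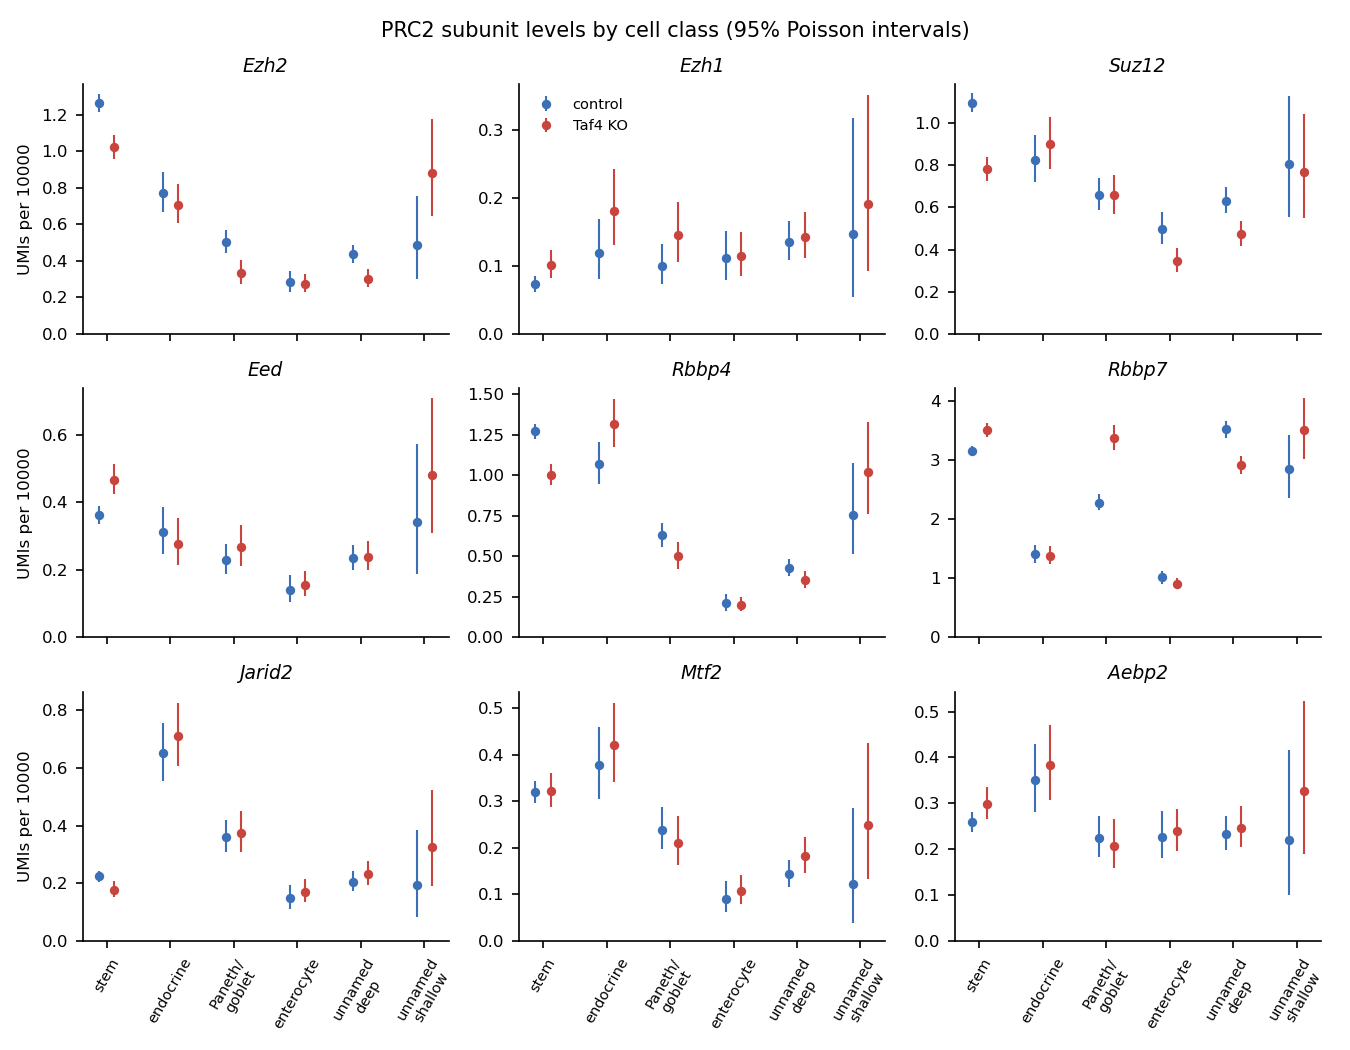
UMIs per 10000 of 9 subunits in the 4 named cell classes and in unnamed cells of at least (deep) or under (shallow) 2000 UMIs, with 95% Poisson intervals. Blue points are the control and red points the KO-labelled library. *Ezh2* is highest in stem-like and lowest in enterocyte-like cells among the named classes of both, whereas *Jarid2* peaks in enteroendocrine-like cells (0.650 and 0.711).

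Within classes, few subunits passed 1.5-fold, while in stem-like cells many differed by less than that and beyond counting error. Among 8195 genes tested in stem-like cells 6.24% were lower and 13.2% higher by over 1.5-fold, and 0 members passed either way. The genes tested in a class had at least 200 UMIs there. Of the members, 9 reached this in stem-like, 5 in Paneth/goblet-like, 3 in enterocyte-like and 5 in enteroendocrine-like cells. As clustered, *Ezh2* (-0.30), *Suz12* (-0.49), *Rbbp4* (-0.34) and *Jarid2* (-0.33) were lower in stem-like cells. *Ezh1* (0.47), *Eed* (0.37), *Rbbp7* (0.15) and *Aebp2* (0.21) were higher there, and the intervals of *Mtf2* and *Phf19* held 0. The median stem-like gene was at 0.18, so that *Rbbp7* lay below it and *Aebp2* near it. In Paneth/goblet-like cells *Ezh2* was the member past it (log2 ratio -0.59, -0.94 to -0.25, where 9.17% of genes were lower and 11% higher), *Rbbp4* was lower at -0.33 (-0.62 to -0.04), and *Rbbp7* was higher by 0.57 (0.44 to 0.69). Over 7 clusterings, added after seeing the data, *Ezh2* lay between -0.66 and -0.05 and *Rbbp4* between -0.34 and 0.02. Each had 0 in the interval in 4 of the 7. *Rbbp7* stayed between 0.51 and 0.66 with 0 outside the interval in each. A stricter marker level, 2 times the mean, gave the same class as reported. This class joined a deep cluster of 87 cells and a shallow one of 99 cells in the KO-labelled library. *Ezh2* was at 0.333 UMIs per 10000 (0.268 to 0.408, 91 UMIs) in the deep and 0.334 (0.160 to 0.614, 10 UMIs) in the shallow cluster. So few UMIs cannot show whether the 2 clusters were alike. In enterocyte-like cells 0 members passed it (5.09% of genes were lower and 5.23% higher), and they lay within counting error of no difference, except *Suz12* at a log2 ratio of -0.52 (-0.84 to -0.20), and *Phf19* gave 0 UMIs in both libraries. In enteroendocrine-like cells, where 4.88% of genes were lower and 16.2% higher by over 1.5-fold, *Rbbp4* was higher by 0.30 (0.06 to 0.54). The median gene there was at 0.25, within this interval. *Ezh1* passed the fold at 0.60 (-0.10 to 1.32) and *Phf19* lay below it with 2 and 1 UMIs, and the intervals of all members but *Rbbp4* held 0.

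The replication level of a cell was read from its summed *Mcm2* to *Mcm7* UMIs, the helicase of DNA replication, after cells of at least 5000 UMIs (1988 and 758) were thinned to 5000. Cells without a Mcm UMI made up 52.3% of these in the control and 73.5% in the KO-labelled library, and cells with at least 2 made up 30.9% and 14.4%. *Ezh2* and *Rbbp4* stepped up with this level in both libraries. *Ezh2* was at 0.599, 0.998 and 1.34 UMIs per 10000 in control cells with 0, 1 and at least 2 Mcm UMIs. In KO-labelled cells it was at 0.404, 0.801 and 1.55, a wider span in both directions. The log2 ratio of the top over the bottom level was 1.16 (1.05 to 1.27) in the control, above 96.8% of genes, and 1.94 (1.78 to 2.11) in the KO-labelled library, above 98.4% of genes.

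Compared at equal Mcm level, *Ezh2* was lower in KO-labelled cells without a Mcm UMI (log2 ratio -0.57, -0.70 to -0.43), lower in those with 1 (-0.32, -0.55 to -0.09) and higher in those with at least 2 (0.21, 0.07 to 0.36). The median of all genes was 0.13, 0.16 and 0.20 at these levels, so that at the top level *Ezh2* lay at the median gene. The difference between levels was not tested. The gradient of *Ezh2* was larger in the KO-labelled than in the control library in each of 6 alternative settings, from 1.39 to 2.26 against 0.82 to 1.68, but the gap depended on the setting. In cells with 0 mitotic UMIs the gradients were 1.63 (1.41 to 1.85) and 1.36 (1.19 to 1.53), whose intervals overlapped. With levels set at 15000 UMIs, which gives each cell more Mcm UMIs, the gradients were 2.19 and 1.68.

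*Rbbp4* had log2 gradients of 1.21 (1.10 to 1.32) in control and 1.52 (1.36 to 1.68) in KO-labelled cells. *Eed* followed with 0.70 and 1.13, *Mtf2* with 0.66 and 0.77, *Suz12* with 0.59 and 0.89, and *Rbbp7* with 0.40 and 0.51. *Eed* at the top level was at 0.386 UMIs per 10000 in the control and 0.569 in the KO-labelled library, a log2 ratio of 0.56 (0.31 to 0.80). *Aebp2* showed no gradient beyond counting error (0.10 and 0.26). *Jarid2* ran the other way, at -0.51 (-0.73 to -0.30) and -0.69 (-1.10 to -0.30). *Ezh1* did so in the control (-0.64, -1.01 to -0.28), and in the KO-labelled library the interval of -0.21 held 0 (-0.74 to 0.29). The median gene had a gradient of 0.03 in the control and 0.10 in the KO-labelled library.

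By the summed mitotic genes *Mki67*, *Top2a* and *Cenpf* the picture was alike for *Ezh2*. It was at 0.615, 1.10 and 1.73 UMIs per 10000 in control cells with 0, 1 to 3 and at least 4 mitotic UMIs, and at 0.497, 1.04 and 2.17 in KO-labelled cells. The top level held 259 control and 28 KO-labelled cells. *Suz12* had a steeper gradient here than along the Mcm level, 1.02 (0.90 to 1.13) in the control against 0.59 (0.49 to 0.70), while *Rbbp4* had a flatter one, 0.94 (0.82 to 1.06) against 1.21. Since the same cells stand in both sets of levels, these are descriptions.

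**Figure D3:**
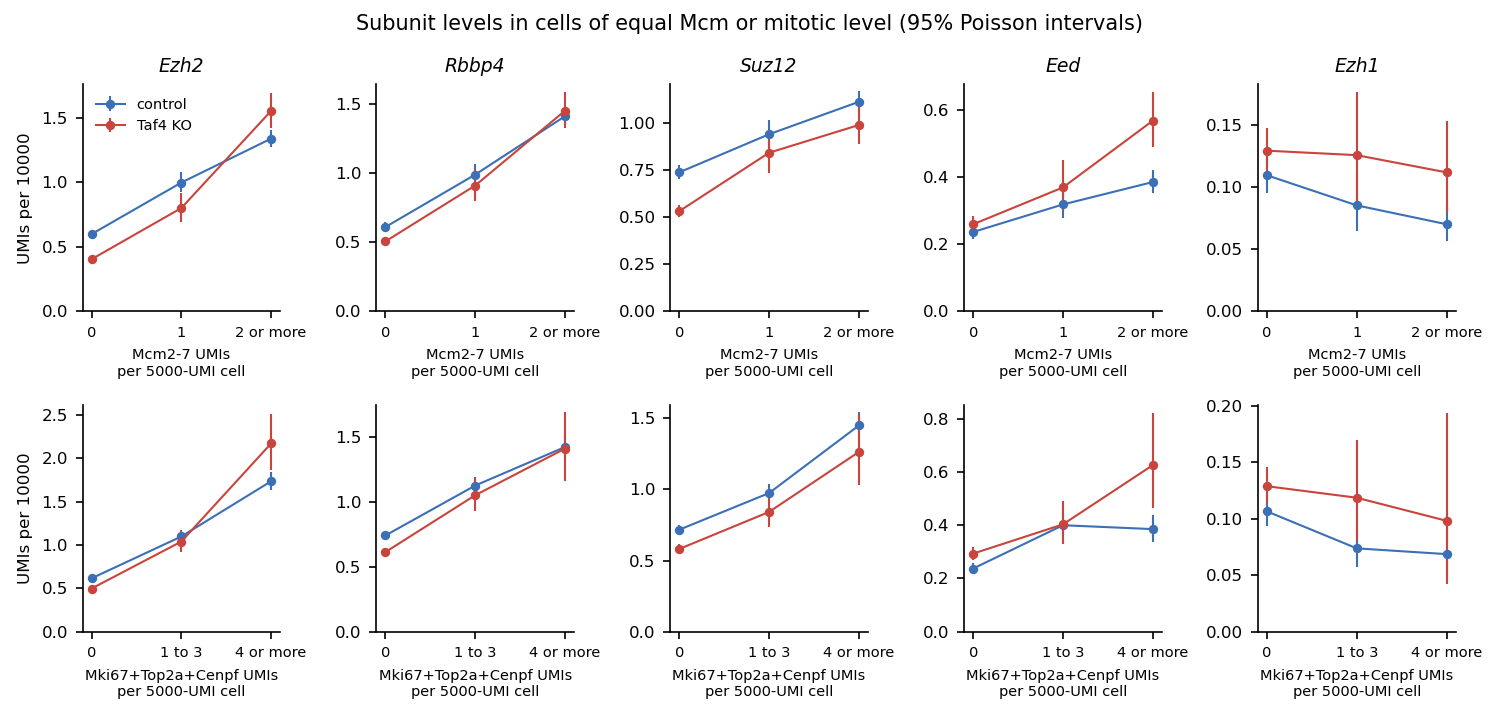
UMIs per 10000 of 5 subunits in cells of at least 5000 UMIs, by the number of *Mcm2* to *Mcm7* UMIs (top row) or of *Mki67*, *Top2a* and *Cenpf* UMIs (bottom row) after thinning to 5000 UMIs, with 95% Poisson intervals. Blue is the control and red the KO-labelled library. *Ezh2* of KO-labelled cells starts below the control (0.404 against 0.599) and ends above it (1.55 against 1.34) along the Mcm level.

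With both levels matched, in 1914 control and 756 KO-labelled cells, *Ezh2* was no longer lower beyond counting error. Its standardized level was 0.718 UMIs per 10000 in the control and 0.767 in the KO-labelled library, a log2 ratio of 0.09 (-0.002 to 0.19), and its direction changed between settings (-0.19 to 0.22). The median gene was above it, at 0.18. The interval of *Ezh2* lay below 0 with the Mcm level alone (-0.28 to -0.10) and the mitotic level alone (-0.21 to -0.02). It lay above 0 with levels set at 15000 UMIs (0.12 to 0.33) and in stem-like cells alone (0.10 to 0.34). *Rbbp4* was at 0.798 and 0.805, a log2 ratio of 0.01 (-0.08 to 0.10), below the median gene at 0.18. It was lower in 9 of 10 alternatives, which ran from -0.19 to 0.17. Its interval lay below 0 with, among others, median ratio scaling (-0.17, -0.26 to -0.08) and the mitotic level alone (-0.19, -0.28 to -0.10). With levels set at 15000 UMIs it lay above 0 (0.17, 0.07 to 0.27). *Suz12* remained lower, at 0.795 and 0.703 (log2 ratio -0.18, -0.27 to -0.08), and was lower in each of 10 alternatives, from -0.36 to -0.11, with 0 in the interval when thinned UMIs were used. *Eed* was higher, at 0.271 and 0.356 (0.40, 0.25 to 0.54), also in each of 10 alternatives, from 0.22 to 0.53. *Ezh1* was at 0.103 and 0.125, a log2 ratio of 0.28 (0.04 to 0.52), but its interval held 0 in 4 of the 10 alternatives: at 0.13 without mitochondrial and ribosomal genes in the total, 0.10 with median ratio scaling, 0.24 with levels set at 15000 UMIs and 0.34 in stem-like cells alone.

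Of the other subunits, *Mtf2* (0.19, 0.03 to 0.35) and *Aebp2* (0.18, 0.03 to 0.34) lay at the median of all matched genes, which was 0.18, and *Rbbp7* (0.11, 0.06 to 0.15) below it. *Jarid2* was at -0.12 (-0.27 to 0.04) and *Phf19* at 0.14 (-1.02 to 1.31). None of the 10 members passed 1.5-fold, where 3.54% of 9866 genes were lower and 11.8% higher. The matching left some imbalance: the S phase genes kept out of it had a median of -0.15, the mitotic genes one of -0.31, and *Mcm6* itself was at -0.62. With levels set at 15000 UMIs, in 1499 and 645 cells, these lists were at 0.02 and -0.27 and *Ezh2* at 0.22 (0.12 to 0.33), close to the median gene at 0.22.

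Among stem-like cells no direction of *Ezh2* between libraries could be given. As clustered, its log2 ratio was -0.30 (-0.41 to -0.20), from 1.26 to 1.02 UMIs per 10000. Of 10 alternatives 4 gave a higher level in the KO-labelled library: 0.48 at a lower clustering resolution, 0.28 with 10 principal components, 0.60 without regression of depth and 0.78 with a stricter marker level. The stem-like class then held 264, 360, 257 and 53 KO-labelled cells instead of 448. Different clusters made up the class in the libraries, in the control 4 clusters of 93 to 391 cells and in the KO-labelled library a deep one of 185 cells with few mitotic UMIs, 0.363 per 10000 (*Ezh2* 0.668), a shallow one of 210 cells led by mitotic genes (1.45), and small ones of 34 and 19 cells (2.17 and 2.10).

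**Figure D4:**
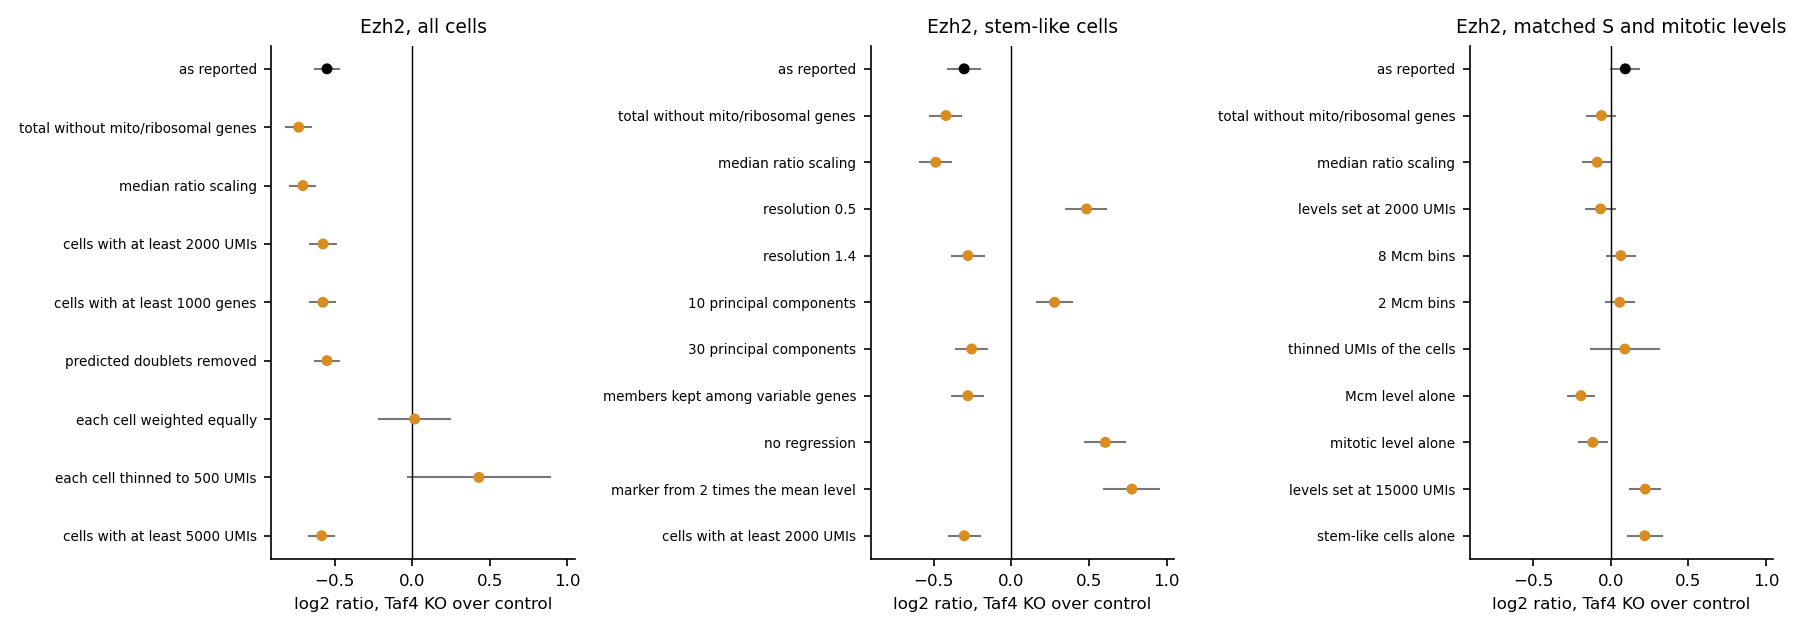
Log2 ratio of *Ezh2*, KO-labelled over control library, over all cells, in stem-like cells and at matched levels, as reported (black) and under each alternative setting (orange), with 95% counting intervals. In stem-like cells the values run from -0.49 to 0.78 and fall on both sides of 0, as they do at matched levels, from -0.19 to 0.22.

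Over 8 settings of stem-like cells, 7 clusterings and a stricter marker level on the reported one, other subunits kept a direction. *Eed* was higher in 8 of 8 (0.36 to 0.84), and its interval lay above 0 in each. *Jarid2* was lower in 8 of 8 (-1.05 to -0.26), beyond counting error in 7. *Aebp2* was higher in 8 of 8 (0.18 to 0.31), but its interval held 0 in 5. As reported, at 0.21, *Aebp2* lay near the median stem-like gene. *Rbbp7* (0.11 to 0.18) and *Mtf2* (0.01 to 0.59) were higher in 8 of 8 as well, but as reported, at 0.15 and 0.01, they lay below the median stem-like gene at 0.18. *Suz12* was higher in 3 and lower in 5, and *Rbbp4* in 4 and 4. The settings share their cells and do not support each other independently. Matched for both levels within stem-like cells (960 and 275), *Ezh2* was at 1.05 and 1.22 UMIs per 10000, a log2 ratio of 0.22 (0.10 to 0.34) with the median gene at 0.21. *Eed* was at 0.344 and 0.497 (0.53, 0.34 to 0.72), *Suz12* at 0.992 and 0.856 (-0.21, -0.35 to -0.08) and *Jarid2* at 0.227 and 0.162 (-0.49, -0.78 to -0.20). Of 7998 genes, 3.73% were lower and 13.1% higher by over 1.5-fold in these cells, and 0 of the 10 members.

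Across the 26 clusters of both libraries, the 4 with the most *Ezh2* held both Mcm RNA (at least 2.71 UMIs per 10000) and mitotic RNA (at least 4.04), and the order of Mcm RNA alone was not followed throughout. The control cluster with 6.36 Mcm UMIs per 10000 (331 cells) had 1.73 *Ezh2* UMIs per 10000 (1.64 to 1.83), and the KO-labelled one with 8.66 (34 cells) had 2.17 (1.91 to 2.44). The next in Mcm RNA, stem-like control clusters of 391 and 93 cells at 4.22 and 3.45, held only 0.905 and 0.749, and had few mitotic UMIs (0.690 and 0.583 per 10000). A KO-labelled cluster of 19 cells with 2.98 Mcm and 21.0 mitotic UMIs per 10000 held 2.10 (1.09 to 3.68). The 5 clusters with the least Mcm RNA (0.108 to 0.266 UMIs per 10000) held 0.155 to 0.301 *Ezh2* UMIs per 10000. The next, an enteroendocrine-like cluster of 100 KO-labelled cells at 0.302 Mcm UMIs per 10000, held 0.793. The control cluster led by mitotic genes (240 cells, 11.9 mitotic UMIs per 10000) had 1.26 *Ezh2* and 0.800 *Rbbp4* UMIs per 10000, beside 1.75 *Rbbp4* UMIs in the control cluster with the most Mcm RNA, which itself held 7.35 mitotic UMIs per 10000. Along the mitotic level *Rbbp4* nonetheless rose, to 1.42 in the top level of the control and 1.41 in that of the KO-labelled library.

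The genes most like *Ezh2* over these clusters, among 5721 genes with at least 1000 UMIs, were *Nop9*, *Tmpo*, *Slf1*, *Atad2* and *Smc1a*, with Pearson r from 0.87 to 0.90. Most like *Suz12* were *Etf1*, *Smc6*, *Smarca5*, *Cep57* and *Scaf11* (0.85 for each), and most like *Ezh1* were *Brwd3*, *Stam*, *Zfp950*, *Scfd1* and *Dennd1b* (0.87 to 0.94). Within the complex, r with *Ezh2* was 0.77 for *Suz12*, 0.70 for *Mtf2* and *Eed*, 0.60 for *Rbbp4*, 0.02 for *Jarid2* and -0.26 for *Ezh1*. The clusters of a library share its depth, and these correlations carry no p.

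**Figure D5:**
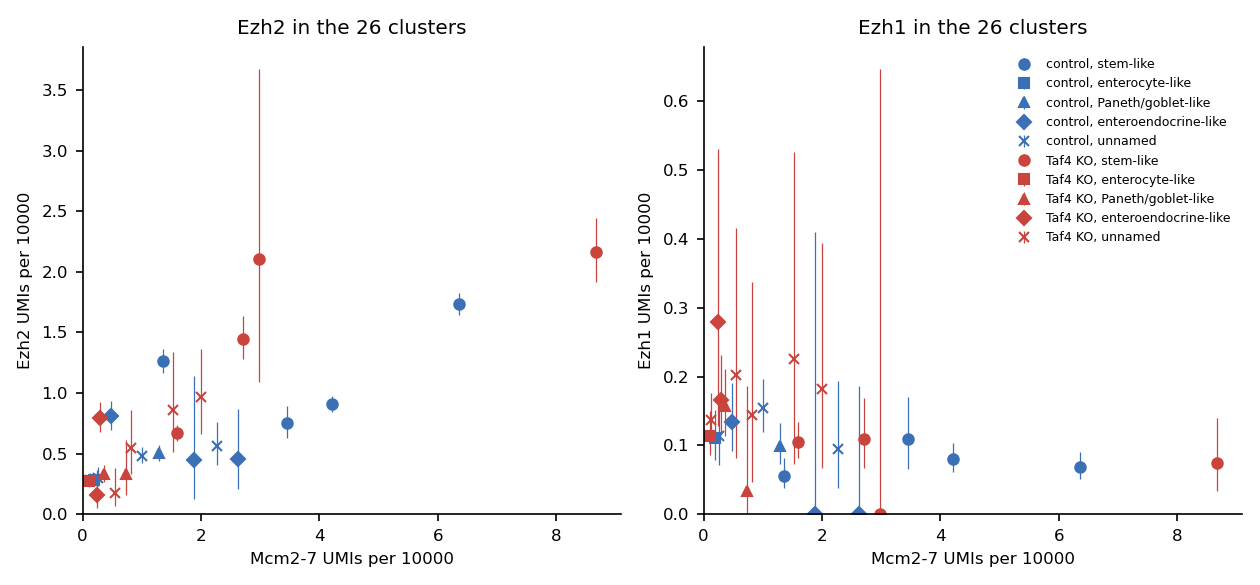
*Ezh2* (left) and *Ezh1* (right) UMIs per 10000 against *Mcm2* to *Mcm7* UMIs per 10000 in the 26 clusters, 12 of the control (blue) and 14 of the KO-labelled library (red), with 95% Poisson intervals and symbols for the cell class. *Ezh2* is at 1.73 and 2.17 in the clusters with the most Mcm RNA of each library, where *Ezh1* is at 0.0688 and 0.0738.

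The ratio of *Ezh2* to *Ezh1* needs no scaling by library size. It was 9.71 UMIs of *Ezh2* per UMI of *Ezh1* in the control and 4.90 in the KO-labelled library, a log2 difference of -0.99 (-1.22 to -0.75). It was 17.3 and 10.1 in stem-like, 6.45 and 3.91 in enteroendocrine-like, 5.04 and 2.30 in Paneth/goblet-like and 2.54 and 2.38 in enterocyte-like cells. The intervals of the log2 difference lay below 0 in stem-like (-0.78, -1.16 to -0.40) and Paneth/goblet-like cells (-1.14, -1.82 to -0.45) and held 0 in the others. In stem-like cells the difference depended on the setting, like *Ezh2* itself: it was below 0 in 4 of the 8 settings and above 0 in 4, from -0.78 to 0.92. In Paneth/goblet-like cells it was below 0 in each of the 7 clusterings (-1.21 to -0.66), with 0 in the interval in 4. With each cell weighted equally the difference over all cells was -0.42 (-1.04 to 0.20).

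In cells under 2000 UMIs (444 and 890), *Ezh2* was higher in the KO-labelled library. It had 24 UMIs, 0.493 per 10000 (0.316 to 0.734), in the control and 66 UMIs, 0.862 per 10000 (0.667 to 1.10), in the KO-labelled library, a log2 ratio of 0.80 (0.11 to 1.54). *Rbbp7* was at 2.67 and 3.63 per 10000 (0.44, 0.14 to 0.75). The intervals of *Ezh1*, *Suz12*, *Eed*, *Rbbp4*, *Jarid2*, *Mtf2* and *Aebp2* held 0, and *Phf19* gave 0 and 2 UMIs. By size alone *Ezh2*, *Mtf2* and *Aebp2* passed 1.5-fold higher, in a set where 14.2% of 772 genes did, and 0 members passed 1.5-fold lower, where 6.35% did. These 772 genes had at least 200 UMIs in the shallow cells, which only 1 member reached. The shares are therefore no measure for *Ezh2*, *Mtf2* and *Aebp2*, which had fewer UMIs and scatter more.

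Other genes of the pathway were described by their all-cell log2 ratios beside the median gene at 0.16, among genes with at least 100 UMIs. Of the other accessory subunits of PRC2, 4 of 4 were higher, 2 of them above the median gene, *Phf1* by 0.61 and *Epop* by 0.25, and *Ezhip* was not listed. Of 25 genes of PRC1, the companion complex that ubiquitylates histones, 14 were higher and 11 lower, with a median of 0.01, and 7 lay above the median gene. *Scmh1* (0.82) and the chromodomain gene *Cbx6* (0.75) were highest, and *Bcorl1* (-0.43) and *L3mbtl2* (-0.41) lowest. Of 5 genes of the deubiquitinase complex PR-DUB, 4 were higher and 1 lower (median 0.11, 2 above the median gene), with *Foxk1* at 0.30 and *Bap1* at 0.21, and *Asxl1* at -0.19 and *Foxk2* at 0.01. Among genes that oppose PRC2 by removing methyl or adding acetyl groups at H3K27, the demethylases *Kdm6b* (0.66) and *Kdm6a* (0.26) were higher, while *Ep300* (0.04) and *Crebbp* (-0.03) lay within counting error of 0.

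Of 10 Trithorax genes, which write a mark of active genes, 5 were higher and 5 lower (median -0.03, 3 above the median gene), with *Kmt2c* at 0.36, *Kmt2d* at 0.32, *Hcfc1* at -0.38 and *Men1* at -0.19. Of 17 SWI/SNF remodeller genes, 5 were higher and 12 lower (median -0.09, 4 above the median gene), with the ATPase *Smarca2* at 0.74 and *Arid1b* at 0.34, and *Actl6a* at -0.70 and *Smarce1* at -0.33. Of the 10 partners of *Rbbp4* and *Rbbp7*, 3 were higher and 7 lower (median -0.25, 1 above the median gene). The CAF-1 subunits *Chaf1a* (-1.17, -1.42 to -0.93) and *Chaf1b* (-1.11, -1.31 to -0.92), which assemble nucleosomes behind the replication fork, were lowest, and *Gatad2a* (0.25) and *Chd4* (0.15) highest. At matched levels *Chaf1a* was at -0.28 and *Chaf1b* at -0.17.

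Of 20 genes known as Polycomb targets, 9 were listed and 5 had at least 100 UMIs. These 5 were higher, with a median log2 ratio of 0.70 over all cells and 0.60 at matched levels. Of them 4 were higher by over 1.5-fold, where 16% of genes with at least 200 UMIs were. *Hoxa5* had 30 UMIs in the control and 73 in the KO-labelled library, a log2 ratio of 1.96 (1.33 to 2.62). It passed the limit of 100 UMIs only through the library where it was high, so the shared direction of the 5 is partly set by the limit. *Pax6*, an enteroendocrine transcription factor, had 108 and 189 UMIs (1.48, 1.13 to 1.84), the Cdk inhibitor *Cdkn1c* 305 and 291 (0.61, 0.37 to 0.85) and *Gata4* 384 and 359 (0.58, 0.37 to 0.79). *Cdkn2b*, at 0.70 over all cells, was at 0.06 (-0.08 to 0.20) at matched levels. Among targets under 100 UMIs, named after their values were seen, *Hoxa7* had 2 and 24 UMIs, *Hoxc6* 0 and 23, and *Hoxd8* 44 and 0, so that the Hox genes did not share a direction. The enteroendocrine-like class, where *Pax6* acts, made up 10.3% of control and 7.12% of KO-labelled cells. By UMIs, which these levels rest on, it held 2599831 of 39947009 in the control and 2377479 of 24990128 in the KO-labelled library, a larger share. Summed enteroendocrine markers in unnamed cells stood at 0.873 and 14.8 UMIs per 10000. The part of cell composition in these values was not tested.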

How the data were processed

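Single-cell RNA of 1 control and 1 KO-labelled enteroid culture was analysed. The authors demultiplexed reads with bcl2fastq 2.17.1.14 and used Cell Ranger 3.1 to align them to mm10, drop genes without reads and count UMIs, and they name Seurat 3.1.4 for the later steps. The deposited values are whole-number UMI counts for each gene in each cell, not normalized, and hold only cells with 200 to 6000 genes and under 15% mitochondrial counts.

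Levels are UMIs of a gene per 10000 UMIs, summed over cells, so deep cells weigh most. Poisson and conditional binomial 95% intervals were computed with scipy 1.17.1 in Python 3.11.15. No replicates were available, so there was no test. Each library was clustered with Seurat 5.3.0 in R 4.3.3 (2000 variable genes without the 10 members, 20 principal components, resolution 0.9, UMI count and mitochondrial percent regressed out). A class needed 3 markers of at least 10 UMIs at 1.5 times the mean level of the 2 libraries and no stronger lead by markers of another class, where leading genes needed 1 UMI per 10000 and 20 UMIs in the cluster, a limit set after the clusters had been seen. Scrublet (scanpy 1.11.5) marked 10 control and 0 KO-labelled cells as doublets. This is too few to count as a working call for doublets, and the cells were kept.

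For matching, cells of at least 5000 UMIs were thinned to 5000 and binned by *Mcm2* to *Mcm7* UMIs (0, 1, and 2 to 17, since quartiles coincided) and by *Mki67*, *Top2a* and *Cenpf* UMIs (0, 1 to 3, 4 or more). Levels per bin were weighted by the mean of the share of cells in each library, over 8 of 9 bins with at least 5 cells in each. Intervals of matched values are by the delta method. Both steps were tested on simulated counts.

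Likeness is Pearson's r over clusters, on log2 of UMIs per 10000 plus 0.01, centred per library. The named genes are the members, the genes used for matching, the highest and lowest 2 of each pathway list with at least 100 UMIs, and the 5 genes most like *Ezh2*, *Ezh1* and *Suz12*, and any others were named after their values were seen. The members and lists were chosen with earlier results of these data known. Alternatives covered scaling, depth, clustering, doublets and the bins. The setting of 15000 UMIs, the limit of 5000 UMIs for all cells the matching within stem-like cells and the settings for Paneth/goblet-like cells were added after seeing the data. Promoter windows are from RefSeq (GRCm38.p6), with a window for each of the 10 genes. Bulk RNA, chromatin and animal experiments of the study were not analysed here.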

Additional observations from a re-analysis of the deposited data

Results flagged for a closer look

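The log2 ratio of *Rbbp4*, KO-labelled over control library, had opposite signs in the cell classes. It was 0.30 (0.06 to 0.54) in enteroendocrine-like and -0.34 (-0.45 to -0.23) in stem-like cells. The median gene was at 0.25 and 0.18 in these classes. The enteroendocrine-like value of *Rbbp4* thus lay at the median gene within counting error, and the stem-like value below it. The difference between the classes was not tested. Over the 8 settings of clustering and naming the enteroendocrine-like value stayed between 0.25 and 0.33, whereas the stem-like value was higher in 4 and lower in 4, from -0.34 to 0.50. The stricter marker level left the enteroendocrine-like value as reported, so its range rests on 7 clusterings.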

How the results depend on the processing

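With 1 library a group leaving out a replicate was not possible. No paired analysis was possible because each group has 1 library. Of 65 alternatives of the 8 main values, 28 stayed within counting error and 18 had the other sign, 11 of them of values whose reported interval left out 0. Of 160 alternatives of single subunits, 111 stayed within counting error and 28, some of these included, had the other sign, 5 of them of such values. The causes were not tested. Depth limits *Phf19*, the KO-labelled top mitotic level and all cells under 2000 UMIs.

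Without mitochondrial, ribosomal protein, *Gm42418* and *AY036118* genes in the total, *Ezh2* was at -0.73 over all cells, -0.42 in stem-like cells and -0.059 at matched levels, the members' median at -0.25 and, matched, -0.019, and matched *Rbbp7* at -0.054. With median ratio scaling these were -0.70, -0.49, -0.087, -0.22, -0.058 and -0.076. With each cell weighted equally over all cells, *Ezh2* was at 0.017, the members' median at 0.14, *Rbbp7* at 0.23 and the log2 ratio of *Ezh2* to *Ezh1* at -0.42. Thinned to 500 UMIs they were at 0.43, 0.37, 0.37 and -0.16.

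*Ezh2* in stem-like cells was at 0.48 at a lower resolution, 0.28 with 10 principal components, 0.60 without regression and 0.78 with markers at 2 times the mean level. At matched levels *Ezh2* was at -0.065 with levels set at 2000 UMIs, -0.19 with the Mcm level alone, -0.11 with the mitotic level alone, 0.22 with levels set at 15000 UMIs and 0.22 in stem-like cells alone. The members' median was -0.016, -0.0099 and -0.0012 in the first 3 of these. *Aebp2* was at -0.034 with thinned UMIs.

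The gradient of *Ezh2* along the Mcm level, control then KO-labelled, was 0.82 and 1.39 with levels set at 2000 UMIs, 1.30 and 2.19 with 8 bins, 1.68 and 2.19 at 15000 UMIs, and 1.36 and 1.63 in cells without mitotic UMIs. With thinned UMIs the KO-labelled value was 2.26.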
